A study of Homo sapiens with 6 samples.

Results

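The histone cluster 1 genes were followed in the ATAC-seq peak lists of 3 human esophageal cell lines. The members were the genes of GENCODE 44, lifted to hg19, that lie between 26.0 and 27.9 Mb of chromosome 6 (chr6:26017260-27861669 from the first to the last member) and carry a symbol starting with H1-, H2AC, H2BC, H3C or H4C. The rule gave 57 genes, of which 49 are protein-coding and 8 are pseudogenes, against 20163 annotated protein-coding genes in all. The protein-coding members divide into 6 H1, 11 H2A, 12 H2B, 10 H3 and 10 H4 genes. H2BC7, H2BC8 and H4C6 were not analysed here, and H4C2 is entered under its older symbol HIST1H4B and falls outside the rule.

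ATAC-seq marks accessible DNA by the cuts of the Tn5 transposase. HET-1A is a non-cancerous epithelial line of the esophagus and was grown in BEBM medium with its additives, while KYSE-30 and KYSE-150 are esophageal squamous cell carcinoma (ESCC) lines and were grown in RPMI/F12 with serum. No line was treated. Line and medium cannot be told apart between HET-1A and the ESCC lines. Each line is 1 established culture and has 2 libraries, described in the labels as biological replicates and named here by their label numbers: 1 and 2 for HET-1A, 4 and 6 for KYSE-30, and 7 and 8 for KYSE-150.

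The lists hold 168 and 15979 peaks for HET-1A libraries 1 and 2, 1255 and 11671 for KYSE-30 libraries 4 and 6, and 547 and 259 for KYSE-150 libraries 7 and 8. The 2 long lists, HET-1A library 2 and KYSE-30 library 6, stand apart from their own replicates in every count below, so each library is given on its own. The genome background, the smallest number of tags per 200 bp that the peak caller set against a peak, was 1.49 to 3.34 over the 6 libraries. TP63, KRT5, KRT14 and SOX2, known from squamous epithelium or its basal layer, and CDH1, expressed in epithelia at large, had no peak within 1 kb of a transcript start in any list. EPCAM, a marker of simple epithelium rather than of normal squamous epithelium, had one in the 2 long lists. The peaks thus did not show the squamous identity of the lines. Absence from a list does not show that a promoter was closed. The smallest two-sided p that 2 against 2 libraries allow in an exact permutation test is 0.333, so lines were not tested against each other.

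Histones are the proteins on which DNA is wound into nucleosomes. H2A, H2B, H3 and H4 form the nucleosome core, and H1 binds the linker DNA between cores. The genes of this cluster are typically replication-dependent. Such genes are transcribed in S phase from short, intronless units. Their mRNAs end in a stem-loop, bound by SLBP, in place of a poly(A) tail. Some gene models used here are longer, such as those of H2BC4 (37610 bp) and H2BC15 (17165 bp). NPAT, which is activated by cyclin E and CDK2, gathers with the genes in the histone locus body, and POU2F1 (OCT1) and HINFP bind elements of H2B and H4 promoters, respectively. Many H2A and H2B genes lie head to head and share 1 short promoter.

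The sequences below show these shared promoters, as the stretch between both start sites, on the forward strand of hg19. Capitals mark the octamer (ATTTGCAT), the box CCAAT, the TATA box in the form TATAAA and the H4 element core GGTCCG, in either orientation. H2BC12/H2AC12 (chr6:27114635-27114884) was the 1 pair with a peak in 3 libraries, and H2BC11/H2AC11 (chr6:27100575-27100821) had the highest fold enrichment of all members. H2BC13/H2AC13 (chr6:27775708-27775950) and H2AC14/H2BC14 (chr6:27782556-27782799) are near copies in opposite orientation. H2AC15/H2BC15 (chr6:27806154-27806322) is the shortest of the stretches and holds neither the octamer nor TATAAA. H2BC3/H2AC5P (chr6:26043942-26044216) had no peak in any library.
H2BC12/H2AC12: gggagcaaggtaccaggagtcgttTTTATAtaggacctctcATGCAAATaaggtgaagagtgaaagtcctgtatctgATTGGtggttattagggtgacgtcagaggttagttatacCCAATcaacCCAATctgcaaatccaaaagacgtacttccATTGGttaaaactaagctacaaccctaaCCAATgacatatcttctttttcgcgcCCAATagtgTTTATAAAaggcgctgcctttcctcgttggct
H2BC11/H2AC11: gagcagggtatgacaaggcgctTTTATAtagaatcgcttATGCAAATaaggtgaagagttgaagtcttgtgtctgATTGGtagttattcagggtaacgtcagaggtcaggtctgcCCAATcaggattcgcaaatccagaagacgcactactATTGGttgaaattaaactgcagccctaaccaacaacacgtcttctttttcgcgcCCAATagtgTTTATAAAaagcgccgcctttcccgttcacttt
H2BC13/H2AC13: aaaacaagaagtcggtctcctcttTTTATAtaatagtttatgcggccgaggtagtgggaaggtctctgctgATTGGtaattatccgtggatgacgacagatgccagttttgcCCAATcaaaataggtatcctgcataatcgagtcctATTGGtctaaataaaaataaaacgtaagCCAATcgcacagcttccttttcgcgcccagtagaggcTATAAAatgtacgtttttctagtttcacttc
H2AC14/H2BC14: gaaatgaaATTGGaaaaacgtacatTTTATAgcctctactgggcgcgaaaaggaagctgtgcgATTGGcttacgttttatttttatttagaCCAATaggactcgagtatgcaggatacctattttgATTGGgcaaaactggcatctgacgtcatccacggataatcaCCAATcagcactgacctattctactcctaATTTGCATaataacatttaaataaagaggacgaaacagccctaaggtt
H2AC15/H2BC15: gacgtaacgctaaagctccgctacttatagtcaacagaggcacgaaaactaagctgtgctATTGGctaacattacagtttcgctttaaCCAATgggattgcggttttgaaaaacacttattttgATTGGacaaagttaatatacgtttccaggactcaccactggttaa
H2BC3/H2AC5P: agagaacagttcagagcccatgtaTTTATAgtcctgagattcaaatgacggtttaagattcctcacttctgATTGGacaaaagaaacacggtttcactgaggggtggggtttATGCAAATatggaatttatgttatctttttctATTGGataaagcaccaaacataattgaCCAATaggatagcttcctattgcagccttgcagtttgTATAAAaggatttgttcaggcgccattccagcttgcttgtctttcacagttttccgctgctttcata

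The stretches held 3 to 6 CCAAT boxes each. Across the 8 H2A-H2B stretches of at most 300 bp, aligned with the H2B gene to the left, identity ran from 48.6% to 86.5% over 28 comparisons, with a median of 54.8%. The closest were H2BC13/H2AC13 with H2AC14/H2BC14 (86.5%) and H2BC11/H2AC11 with H2BC12/H2AC12 (80.3%). In H2BC11/H2AC11, H2BC12/H2AC12 and H2AC14/H2BC14 the octamer lay 40, 42 and 41 bp from the H2B start. H2BC13/H2AC13 does not hold the exact octamer. Of the 6 octamers in the 8 stretches, 4 lay nearer to the H2B than to the H2A start.

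No H1 or H4 gene has a divergent partner among the members. The 250 bp upstream of the start are shown for H1-4 (chr6:26156307-26156556), a linker histone gene and the only H1 gene with a peak, and for H4C5 (chr6:26204588-26204837), whose peak was called in KYSE-150 and in no library of the other lines. Both genes lie on the forward strand.
H1-4: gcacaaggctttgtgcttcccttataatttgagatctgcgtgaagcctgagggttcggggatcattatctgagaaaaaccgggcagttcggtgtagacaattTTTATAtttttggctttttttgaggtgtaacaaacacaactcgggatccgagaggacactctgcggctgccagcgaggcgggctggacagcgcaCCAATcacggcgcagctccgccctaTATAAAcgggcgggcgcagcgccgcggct
H4C5: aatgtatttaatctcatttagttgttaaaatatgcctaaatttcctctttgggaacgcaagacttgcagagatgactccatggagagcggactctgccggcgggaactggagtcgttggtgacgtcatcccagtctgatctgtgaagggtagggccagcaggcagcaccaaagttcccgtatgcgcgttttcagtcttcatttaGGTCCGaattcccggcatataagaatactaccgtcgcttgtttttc

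H2A and H2B genes, 23 of the 49 coding members, lay nearest to 7 of the 8 distinct member peaks in HET-1A library 2, to 14 of 24 in KYSE-30 library 6 and to 2 of 4 in KYSE-150 library 7. Of the 49 protein-coding members, 31 (63.3%, Wilson 95% interval 49.3 to 75.3) had a peak within 1 kb of the start in KYSE-30 library 6, where 22.1% of all protein-coding genes had one. In HET-1A library 2 the count was 14 (28.6%, 17.8 to 42.4), close to the 26.5% of all genes. In KYSE-150 library 7 it was 6 (12.2%, 5.73 to 24.2), against 1.33% of all genes. Widening the window from 1 to 3 kb gave 37, 18 and 7 members, in the same order of libraries.

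The other replicate of each line had no member peak. HET-1A library 1, KYSE-30 library 4 and KYSE-150 library 8 listed 0 of 49, where 0.0248%, 2.9% and 0.124% of all protein-coding genes were called. No member therefore had a peak in both libraries of a line, and the counts of 14, 31 and 6 each rest on 1 library. Over all genes the share called in both libraries was 0.00992% in HET-1A, 2.47% in KYSE-30 and 0.0248% in KYSE-150. KYSE-30 library 4 called 498 genes together with library 6, none of them a member.

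The lists differ in what they could call. The lowest fold enrichment listed at the genome background was 3.82, 2.99, 3.86, 3.62, 3.68 and 3.85 in libraries 1, 2, 4, 6, 7 and 8. Of the 24 peaks at members in KYSE-30 library 6, 20 were at or above the value of library 4 of the same line. None of the 24 stood at the genome background, so that value is not their limit for a call. In KYSE-150 library 7, H1-4 was listed at 3.03, below the 3.68 of that library. All 8 peaks of HET-1A library 2 were above the value of library 1. The lists do not give the local background of libraries 1 and 4 at these places. These comparisons thus do not show whether the peaks could have been listed there. The part of read depth and local background in the absence of members from the shorter lists was not tested.

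**Figure D1:**
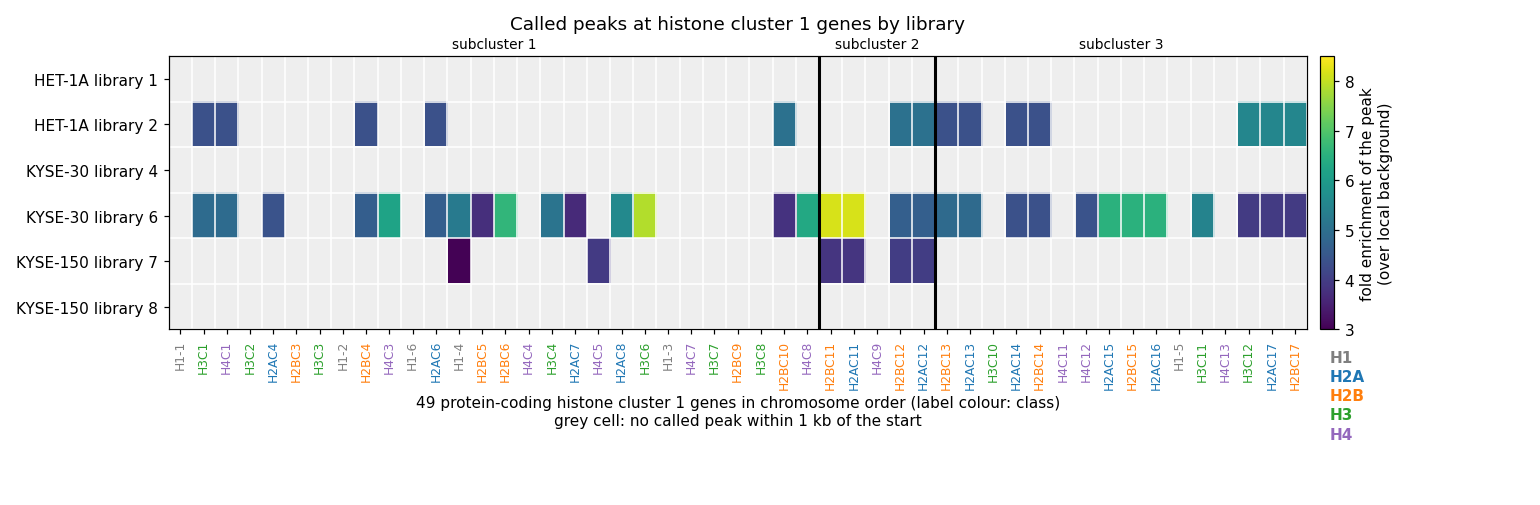
Fold enrichment over the local background (colour) of the called peak within 1 kb of the start of each protein-coding member (columns, in chromosome order, label colour by class) in each of the 6 libraries (rows); grey cells have no called peak and black lines separate the subclusters. Peaks fill 14 cells of HET-1A library 2, 31 of KYSE-30 library 6 and 6 of KYSE-150 library 7, and the other 3 rows are empty.

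The long lists named overlapping members. All 14 members called in HET-1A library 2 were also called in KYSE-30 library 6, where 52.6% of all genes called in the former were called in the latter. In the other direction 14 of 31 were shared, against 63.0% over all genes. The 14 members rest on 8 distinct peaks in HET-1A library 2, since neighbouring genes share peaks. Among them, H3C1 and H3C12 were called only through the peaks of H4C1 and of H2AC17/H2BC17. Both libraries called 28.6% of the members and 13.9% of all protein-coding genes. A further 17 members had a peak in KYSE-30 library 6 and not in HET-1A library 2, among them H1-4, H3C4, H3C6, H3C11, H4C3, H4C8 and H4C12 and the pairs H2BC11/H2AC11 and H2AC15/H2BC15. Across the 6 libraries 2 members had a peak in 3, 15 in 2, 15 in 1 and 17 in none.

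By class, KYSE-30 library 6 listed a peak at all 11 H2A genes and at 10 of 12 H2B genes, at 5 of 10 H3 genes, at 4 of 10 H4 genes and at 1 of 6 H1 genes. HET-1A library 2 listed a peak at 5 of 11 H2A, 6 of 12 H2B, 2 of 10 H3, 1 of 10 H4 and 0 of 6 H1 genes. In KYSE-150 library 7 the 6 members were 2 H2A, 2 H2B, 1 H4 and 1 H1 gene. The classes share peaks, since 1 peak can serve both genes of a pair, so the class counts are not independent observations.

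**Figure D2:**
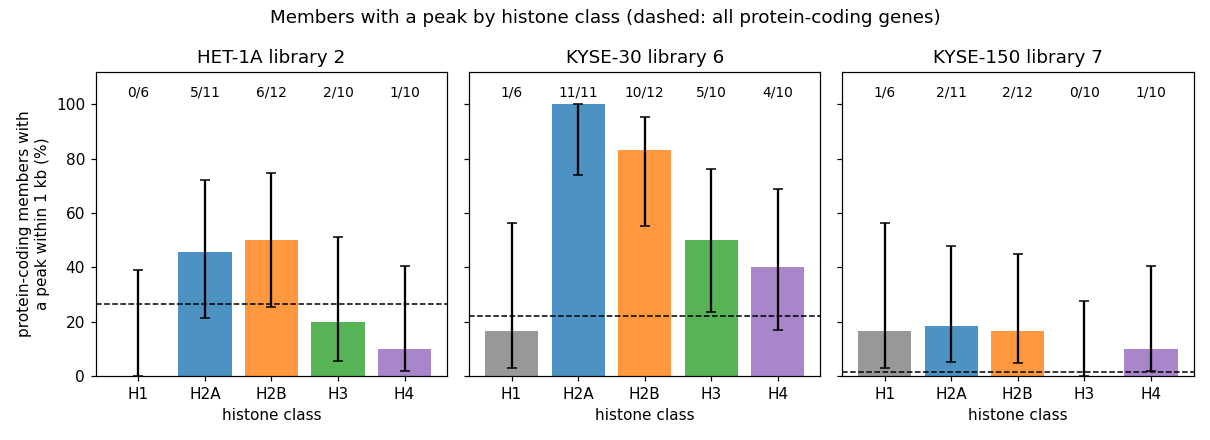
Share of the protein-coding members of each histone class with a peak within 1 kb (bars, %), with Wilson 95% intervals and counts above, in the 3 libraries with member peaks; the dashed line is the share over all protein-coding genes. In KYSE-30 library 6 the H2A bar stands at 11/11 and the H1 bar at 1/6, below the dashed line at 22.1%.

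Among the linker histone genes, H1-4 was called in KYSE-30 library 6 with a fold enrichment of 5.27 (24 tags at the summit, which lay at -19 bp from the start) and in KYSE-150 library 7 with 3.03 (26 tags, at 46 bp). It was in none of the other 4 lists. H1-1, H1-2, H1-3, H1-5 and H1-6 had no peak in any library. The promoters of these 5 genes hold CCAAT, as that of H1-4 does.

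In the H2A class the highest fold enrichment was 5.53 in HET-1A library 2 (H2AC17, 23 tags), 8.17 in KYSE-30 library 6 (H2AC11, 33 tags) and 3.99 in KYSE-150 library 7 (H2AC12, 30 tags). The median over the called H2A genes was 4.37, 4.67 and 3.92. H2AC4, H2AC7 and H2AC8, which have no divergent partner among the members, were called in KYSE-30 library 6 only, at 4.4, 3.65 and 5.59. In RefSeq on GRCh38, H2AC7 and H2AC8 lie head to head with H2BC7 and H2BC8, which were not analysed here. The H2B class carried the same leading peaks through the shared promoters, at H2BC17, H2BC11 and H2BC12. Of the H2B genes without a partner among the members, H2BC5 had a fold enrichment of 3.75 and H2BC6 of 6.62 in KYSE-30 library 6. H2BC3 and H2BC9 had no peak in any library.

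The start of H2BC6 needs care. Its peak lies at the 5′ end of the gene model, 11702 bp from the start of its canonical transcript, and no peak was called at the latter. H3C12 is a like case: its gene model reaches 2280 bp upstream of the canonical start into the promoter of H2AC17/H2BC17, and its peaks in HET-1A library 2 (5.53) and KYSE-30 library 6 (3.95) are the peaks of that pair. With canonical starts the counts were 13 in HET-1A library 2 and 29 in KYSE-30 library 6, and 6 in KYSE-150 library 7.

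In the H3 class, H3C6 led KYSE-30 library 6 (fold enrichment 7.86, 24 tags, summit at -106 bp from the 5′ end of the gene model) and was in no other list. Its canonical start lies 936 bp further downstream, and from there the summit was at -1042 bp. H3C12 led HET-1A library 2, through the shared peak just described. H3C4 and H3C11 were called in KYSE-30 library 6 alone, at 5.12 and 5.46. H3C1 shared the peak of H4C1, whose summit lay 1173 bp from the H3C1 start in HET-1A library 2 and 1063 bp in KYSE-30 library 6. H3C2, H3C3, H3C7, H3C8 and H3C10 had no peak.

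In the H4 class, H4C1 was called in HET-1A library 2 (4.37, 18 tags) and in KYSE-30 library 6 (4.92, 24 tags). H4C8 led KYSE-30 library 6 with 6.31 and a second peak of 4.31, and H4C3 followed with 6.18 and a second peak of 3.82. The H4C3 peak of 6.18 (chr6:26104294-26104909) lies downstream of the start, with its summit at 313 bp. It runs past the 3′ end of the gene (chr6:26104161-26104565). The second H4C3 peak had 12 tags and a summit at -176 bp. H4C12 had 4.41 in that library, with 11 tags and a summit 653 bp downstream of the start. Its peak (chr6:27798521-27798720) lies wholly beyond the 3′ end of the gene (chr6:27798952-27799338). With a window of 500 bp, 3 H4 genes were called in KYSE-30 library 6. H4C5 was the only member called in KYSE-150 library 7 and not in KYSE-30 library 6, with a fold enrichment of 3.94, 28 tags and a summit at -3 bp from the start. H4C4, H4C7, H4C9, H4C11 and H4C13 had no peak. HIST1H4B, outside the rule, had 1 peak, in KYSE-30 library 6 at 3.97.

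Members lying head to head within 1 kb form 12 pairs, 9 of them with both genes protein-coding. A peak touched the stretch between the starts in 6 of the 9 coding pairs in HET-1A library 2, in 8 in KYSE-30 library 6 and in 2 in KYSE-150 library 7, and in 0 in libraries 1, 4 and 8. Among all 880 protein-coding head-to-head pairs of the annotation the shares were 53.5%, 44.7% and 2.61% in the former and 0.0%, 6.82% and 0.227% in the latter. The pair without a peak was H3C7/H2BC9, whose starts are 979 bp apart. H3C12/H2BC17 and H2AC17/H2BC17 share 1 promoter and 1 peak.

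H2BC12/H2AC12, with 251 bp between the starts, was called in all 3 lines. The summit held 21 tags in HET-1A library 2 (exact Poisson 95% interval 13.0 to 32.1), 16 in KYSE-30 library 6 (9.15 to 26.0) and 30 in KYSE-150 library 7 (20.2 to 42.8), and the fold enrichment was 5.06, 4.67 and 3.99. The local background was 1.0, 1.77 and 2.41 times the genome background of the library, so over the genome background the summit stood at 6.28, 10.8 and 10.7 times. The order of the libraries thus depends on the background chosen. The summit lay 83, 89 and 98 bp from the H2BC12 start.

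H2BC11/H2AC11, with 248 bp between the starts, was called in KYSE-30 library 6 (8.17, 33 tags, 22.7 to 46.3) and in KYSE-150 library 7 (3.84, 35 tags, 24.4 to 48.7). The raw tag counts were alike within their counting intervals, while the local background was 3.16 tags in the former and 8.38 in the latter. Over the genome background of the library the summit stood at 22.2 times in the former and 12.5 times in the latter. In KYSE-30 library 6 this peak ranked 665 of 11671 by p-value, and in KYSE-150 library 7 it ranked 67 of 547. The peak of H2BC12/H2AC12 ranked 7962 and 92 in the same lists. No peak was listed at H2BC11/H2AC11 in HET-1A.

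The near copies H2BC13/H2AC13 and H2AC14/H2BC14 had 18 tags each in HET-1A library 2 (both 4.37), and 21 and 15 tags in KYSE-30 library 6 (4.91 and 4.37), differences within the counting intervals of 13.0 to 32.1 and 8.4 to 24.7. In each, 44 words of 50 bases between the starts recur near another member start (22.7% and 22.6% of the words there), and where the aligner placed reads of such words was not analysed here. H2AC15/H2BC15 was called in KYSE-30 library 6 alone (6.51, 24 tags). H2AC17/H2BC17 had 5.53 in HET-1A library 2 and 3.95 in KYSE-30 library 6, and H2BC4/H2AC6 had 4.37 and 4.64. Of the 49 coding members, 27 had no word of 50 bases within 1 kb of the start that recurs near another member start, and the highest share was 21.1% (H4C11).

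**Figure D3:**
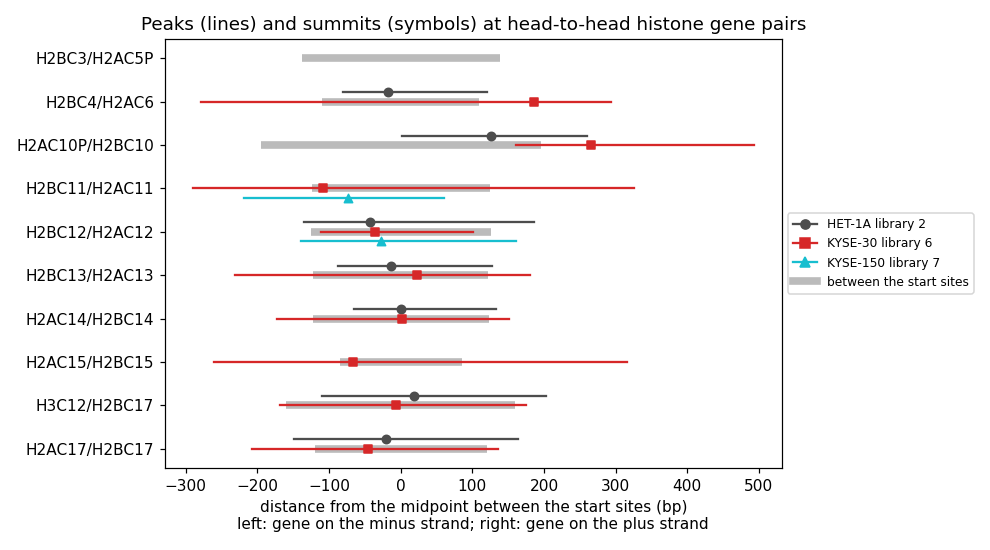
Peaks (thin lines) and summits (symbols) of HET-1A library 2, KYSE-30 library 6 and KYSE-150 library 7 at the 10 head-to-head member pairs with starts at most 400 bp apart, as distance in bp from the midpoint; grey bars span the start sites. Most summits lie between the starts, H2BC12/H2AC12 carries 3 peaks and H2BC3/H2AC5P none.

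Peaks sat close to the 5′ ends of the gene models. Of the 8, 24 and 4 distinct peaks at coding members in HET-1A library 2, KYSE-30 library 6 and KYSE-150 library 7, the summits of 7, 21 and 4 lay within 200 bp of the nearest member start, at median positions of -87.0, -46.5 and -26.5 bp, where negative values are upstream. Widths had medians of 276, 332 and 271 bp. Members with a divergent partner among the members were called in 12 of 20 cases in HET-1A library 2, 17 of 20 in KYSE-30 library 6 and 4 of 20 in KYSE-150 library 7. Members without one were called in 2, 14 and 2 of 29. Over all protein-coding genes the shares were 26.5%, 22.1% and 1.33%. Of all coding head-to-head pairs 53.5%, 44.7% and 2.61% had a peak between the starts. The 29 without a partner include H2AC7 and H2AC8, which RefSeq places head to head with H2BC7 and H2BC8. Both were called in KYSE-30 library 6 alone. RefSeq also gives H3C4 a start 223 bp from that of H2BC7, the same distance as for H2AC7. The H3C4 start used here (chr6:26197514) lies apart from that of H2AC7 (chr6:26199521) and has a peak of its own in KYSE-30 library 6. With H2AC7, H2AC8 and H3C4 all left out the counts were 2, 11 and 2 of 26. The 20 partnered members are 8 H2A, 10 H2B and 2 H3 genes, so class and pairing cannot be told apart in these counts.

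The cluster falls into 3 subclusters separated by more than 200 kb. The first runs from H1-1 to H3C9P (chr6:26017260-26322520) with 28 coding members, the second from H2BC11 to H2AC12 (chr6:27093676-27115341) with 5, and the third from H4C10P to H2BC17 (chr6:27774853-27861669) with 16. In KYSE-30 library 6, 15 of 28, 4 of 5 and 12 of 16 had a peak, against 22.1% of all protein-coding genes. HET-1A library 2 had 5, 2 and 7, against 26.5% of all genes. KYSE-150 library 7 had 2, 4 and 0, against 1.33% of all genes. Of its 6 called members 4 thus lay in the 21.7 kb of the second subcluster and none in the third. These 4 rest on 2 peaks, and the 2 called members of the first subcluster also had 2 peaks. Coding members with a divergent partner were 6 of 28, 4 of 5 and 10 of 16, so subcluster and pairing cannot be told apart here.

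The median fold enrichment at members was below that of other promoter peaks in each library. Over distinct member peaks it was 4.37 in HET-1A library 2 (range 4.37 to 5.53), 4.92 in KYSE-30 library 6 (3.65 to 8.17) and 3.89 in KYSE-150 library 7 (3.03 to 3.99). The medians over the promoter peaks of other protein-coding genes were 4.79, 5.72 and 4.14. Member peaks made up 0.0501%, 0.206% and 0.731% of the lists, with Wilson 95% intervals of 0.0254 to 0.0988, 0.138 to 0.306 and 0.285 to 1.86.

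The median local background at members differed between the libraries by a larger factor than the median fold enrichment. In HET-1A library 2 all 8 member peaks stood at the genome background, as 18.8% of other promoter peaks did, whose median was 1.41 times the genome background. At members of KYSE-30 library 6 the ratio of local to genome background was 1.16 to 2.74 (median 1.95, against 1.55 at other promoters). At those of KYSE-150 library 7 it was 2.27 to 2.99 (median 2.62, against 1.41), and 12.7% of other promoter peaks reached the lowest of these. Over the genome background the summit tags had medians of 5.38, 12.8 and 10.4 at members and of 8.37, 12.1 and 7.14 at other promoters. Members thus stood below other promoters in HET-1A library 2 and close to them in KYSE-30 library 6, where members ranged from 7.39 to 22.2. They stood above them in KYSE-150 library 7, on 4 peaks. Only called peaks enter, and a call needs more tags where the local background is higher. These medians are a description, and 1 library stands for each line.

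**Figure D4:**
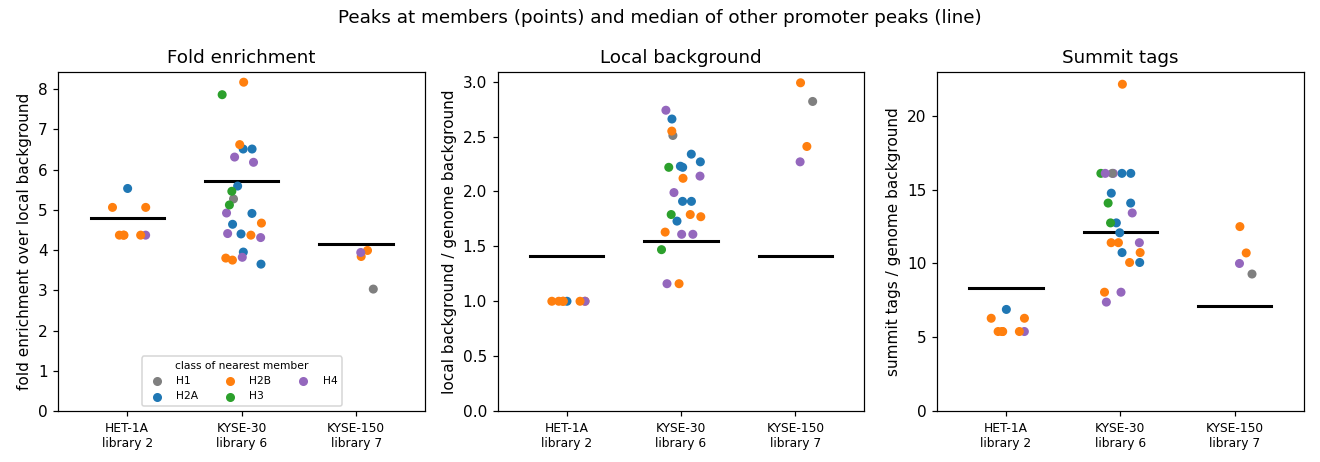
Distinct peaks at coding members (points, coloured by class of the nearest member) and the median of promoter peaks of other protein-coding genes (lines) in 3 libraries: fold enrichment, local background over genome background, and summit tags over genome background. The points of HET-1A library 2 sit at a background of 1.0, those of KYSE-150 library 7 between 2.27 and 2.99.

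Away from members in the same region the peaks of KYSE-150 library 7 numbered 5, with local backgrounds of 1.0, 1.0, 1.51, 2.74 and 2.03 times the genome background. The last pair lay at the edges of the third subcluster, chr6:27763616-27763888 and chr6:27870648-27871056. Of the 16 other protein-coding genes of the region, HIST1H4B left out, HET-1A library 2 listed a peak at 6, KYSE-30 library 6 at 6 and KYSE-150 library 7 at 0. In KYSE-30 library 6, 1 of these calls (ENSG00000282988) is the peak of H2AC7, which leaves 5. Of the libraries without a member peak, KYSE-30 library 4 listed ZNF184 (5.25), KYSE-150 library 8 listed HMGN4 (3.4) and HET-1A library 1 listed none.

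Of 17 replication-dependent histone genes elsewhere in the genome, HET-1A library 2 called 2 (11.8%) and KYSE-30 library 6 called 3 (17.6%). Over all protein-coding genes the shares were 26.5% and 22.1%. The genes called elsewhere were the divergent pair H2AC25/H2BC26 in both libraries (5.72 and 6.94) and H4C16 in KYSE-30 library 6 (4.57). Of 12 genes of histone variants and replacement histones, 4 and 5 had a peak. H2AX, whose product marks DNA breaks when phosphorylated, was called in HET-1A library 2 (5.95), KYSE-30 library 4 (4.26) and KYSE-30 library 6 (9.27).

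Of 24 genes that serve histone gene expression and histone deposition, HET-1A library 2 listed a peak at 14 (58.3%) and KYSE-30 library 6 at 16 (66.7%), against 26.5% and 22.1% of all genes. NPAT was called in KYSE-30 library 6 alone (7.77), and SLBP in HET-1A library 2 alone (5.36). HINFP (7.56 and 8.04), CASP8AP2 (5.4 and 8.18), a component of the histone locus body, and POU2F1 (4.14 and 5.08) were called in both. KYSE-30 library 4 listed POU2F1 (3.89) and KYSE-150 library 7 listed ASF1B (4.95), a histone chaperone.

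Motifs were searched on both strands from 250 bp upstream to 50 bp downstream of each start, and a match may overlap one of another motif or its own reverse complement. CCAAT was found in 43 of 49 members (35.8% of all protein-coding promoters), TATAAA in 33 (10.9%) and the octamer ATTTGCAT in 18 (1.66%). The octamer was a feature of the paired classes: 9 of 11 H2A and 8 of 12 H2B promoters held it, against 1 of 10 H3 (H3C12, through the H2AC17/H2BC17 stretch) and none of the H1 and H4 promoters. GGTCCG was found in 7 of 10 H4 promoters and in 8 of 49 overall (12.5% of all). At canonical starts the octamer was in 9 of 11 H2A, 9 of 12 H2B and 0 of 10 H3 promoters, and GGTCCG in 8 of 10 H4 promoters. The AP-1 core, TGACTCA or TGAGTCA, was in 0 of 49 (3.97% of all).

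Only in HET-1A library 2 were called and uncalled H2A and H2B genes found both with and without the octamer. In KYSE-30 library 6, 15 of 17 with the octamer and 6 of 6 without it had a peak, and in HET-1A library 2 the counts were 9 of 17 and 2 of 6. In KYSE-150 library 7 they were 4 of 17 and 0 of 6. Both genes of a pair can share a peak and are counted separately here. Of all protein-coding genes, 22.1%, 26.5% and 1.33% were called in these libraries, in the order given. Of the 7 H4 genes with GGTCCG, 2 were called in KYSE-30 library 6 and 1 in KYSE-150 library 7 (H4C5). The former were H4C3 and, through a peak beyond its 3′ end, H4C12. These splits use the 5′ ends of the gene models. At its canonical start H2BC6 holds the octamer and had no peak. At its own canonical start H4C8, called in KYSE-30 library 6, holds GGTCCG.

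Among the pseudogenes, H2AC10P, H3C9P and H4C10P had a peak within 1 kb in HET-1A library 2 and in KYSE-30 library 6, and H2BC16P in the latter. The peak at H2AC10P is the one of H2BC10 (fold enrichment 5.06 and 3.8), that at H4C10P the one of H2BC13/H2AC13, and that at H2BC16P the one of H2AC16. H3C9P had a peak that no coding member shared, at 5.53 and 5.1.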

How the data were processed

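ATAC-seq peak lists of 6 libraries from HET-1A, KYSE-30 and KYSE-150 cells were analysed, 2 per line. The authors aligned trimmed reads to hg19 with Bowtie2 2.3.3.1. Picard 2.2.1 served to mark duplicates and bedtools 2.7.1 to remove blacklisted regions, and positions were corrected for the Tn5 offset. The authors kept fragments under 100 bp and called peaks for each library, unpooled, with MACS2 2.1.0.20160309 at a q-value of 0.05 and an extension to 200 bp. Tool versions follow the submitters' processing notes. The deposited lists give a score, a fold enrichment (a ratio), and −log10 of the p-value and q-value. Depth is known only through the background, since read totals are not in the lists.

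A member was called where a peak came within 1 kb of the 5′ end of its gene model. Summit tags and local background were recovered from fold enrichment and p-value, within 0.001 of −log10 p, for 99.6 to 100% of peaks. The local background is the mean over 10 kb or, where that is smaller, the genome background. Intervals (Wilson 95% for shares, exact Poisson for tags) cover counting error only. Those for shares of members treat genes that share a peak as separate, and so are too narrow. Coding genes named are divergent pairs in at least 3 libraries, the highest fold enrichment of each class and library, and members without a peak. Others were named after their values were seen. Members and lists were chosen with earlier results of these data known. The alternatives were windows of 500 bp and 3 kb, summit or any transcript start, q-values under 0.01 and 0.001, equal list length, the nearest member only, either or 1 library per line, pseudogenes included, pairs within 500 bp, gaps over 100 kb and, added after seeing the data, canonical starts and HIST1H4B. No differential test was run. Promoter sequence came from the GRCh37 assembly (hg19). Scripts ran under Python 3.11.15 (pysam 0.24.0, scipy 1.17.1, numpy 2.4.6, matplotlib 3.10.9, pandas 2.3.3).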

Additional observations from a re-analysis of the deposited data

How the results depend on the processing

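The counts rest on 1 library per line. A peak in either library was found at 14 members in HET-1A, 31 in KYSE-30 and 6 in KYSE-150, and at 0 in both, so leaving out 1 library in turn gave 0 to 14, 0 to 31 and 0 to 6. With each list cut to its 168 peaks of smallest p, members called fell to 0 in HET-1A library 2 and in KYSE-30 library 6, and their share of the list to 0, while the count was 5 in KYSE-150 library 7. Counting each peak for its nearest member gave 8 in HET-1A library 2. The class counts changed most for H3 in HET-1A library 2 (1 at 500 bp, 4 at 3 kb) and at 3 kb for H3 (8) and H1 (3) in KYSE-30 library 6, and pseudogenes raised H4 in HET-1A library 2 to 2. Summit tags over the genome background had medians of 5.38, 12.8 and 10.4 in place of fold enrichments of 4.37, 4.92 and 3.89, since the local background is left out. The other 123 of 142 alternatives stayed within 1.5 times a count, the Wilson interval of a share or the spread of a value. They include comparisons of 0 with 0 in libraries 1, 4 and 8, where a stricter setting could not lower the count. They also include the member share of KYSE-150 library 7, which went from 0.731% to 1.79% at equal list length, within its wide interval. No paired analysis was possible because the libraries of different lines share no replicate number.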
